A study of Homo sapiens with 6 samples.

Results

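Messenger RNA levels of 10 genes for S100 calcium-binding proteins (S100A2, S100A4, S100A6, S100A7, S100A8, S100A9, S100A10, S100A14, S100A16 and S100P) were followed through 6 sequenced libraries of sorted breast cancer cells. The members were taken by gene name, as the rows of the deposited table whose Entrez Gene ID maps to these names, and all 10 were found among 18795 genes. The libraries came from MDA-MB-468 and HCC70, 2 established human lines of basal-like breast cancer. From each line 3 untreated populations were sorted: K18+K14+ cells, which stained for keratin 18 and keratin 14, K18+Vim+ cells, which stained for keratin 18 and vimentin, and K18+ cells, recorded as positive for keratin 18. Of these antigens, keratin 18 is typical of luminal cells, keratin 14 of basal cells and vimentin of mesenchymal cells. All cells had been detached with trypsin, fixed in cold methanol and stained before the sort. Each population of each line was 1 library, so that a population had n = 2, 1 per line, and a line had n = 3. Where populations were compared, the 2 lines served as the only replicates. The p-values measure how far the lines disagree over all 3 populations, also the one not compared, since the 6 libraries shared 1 fit. Where the lines were compared, the sorted populations of a line stood in as its replicates. The SEs and p-values of that comparison measure how unevenly the lines differed from population to population. Neither kind of p-value measures the spread between separate cultures. Levels are FPKM, fragment counts scaled to transcript length and to library size, which can be compared between genes. The reads behind each value are not given, so the depth is unknown.

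S100 proteins are small cytoplasmic proteins that carry a pair of calcium-binding EF-hand motifs and work as dimers. Calcium opens a surface on the dimer that then holds a target protein, such as an annexin, a myosin or an enzyme, and several members are also released from cells and act as danger signals on surface receptors. Most S100 genes are clustered on chromosome 1 beside genes of epidermal differentiation, and many are active in stratified epithelium and in breast tumours. Of the members, 9 of 10 lie on chromosome 1, in the order S100A10, S100A9, S100A8, S100A7, S100A6, S100A4, S100A2, S100A16, S100A14, and S100P lies on chromosome 4.

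Start regions of 6 members are printed because these genes differed most between the lines or populations (S100A7, S100A4, S100A8, S100P, S100A2), or, in the case of S100A6, had the highest mean level. Each is the RefSeq window from 250 bases before to 50 bases after an annotated start, on the GRCh38.p14 build, read 5′ to 3′ on the strand of the gene. Windows were listed for all 10 members. Capitals mark TATA boxes (TATAAA), AP-1 motifs (TGANTCA) and GC boxes (GGGCGG), searched on both strands. S100A7 is shown from chr1:153460602-153460901 (minus strand), S100A4 from chr1:153545757-153546056 (minus), S100A8 from chr1:153391024-153391323 (minus, the second of 3 listed starts), S100P from chr4:6693628-6693927 (plus), S100A2 from chr1:153565795-153566094 (minus, the first of 2 listed starts) and S100A6 from chr1:153535942-153536241 (minus).
S100A7: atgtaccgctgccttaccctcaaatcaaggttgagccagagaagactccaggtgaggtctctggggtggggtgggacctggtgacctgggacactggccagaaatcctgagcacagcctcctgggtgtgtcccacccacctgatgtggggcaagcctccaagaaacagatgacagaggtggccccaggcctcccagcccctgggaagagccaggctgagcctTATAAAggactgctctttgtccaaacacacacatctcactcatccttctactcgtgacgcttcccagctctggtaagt
S100A4: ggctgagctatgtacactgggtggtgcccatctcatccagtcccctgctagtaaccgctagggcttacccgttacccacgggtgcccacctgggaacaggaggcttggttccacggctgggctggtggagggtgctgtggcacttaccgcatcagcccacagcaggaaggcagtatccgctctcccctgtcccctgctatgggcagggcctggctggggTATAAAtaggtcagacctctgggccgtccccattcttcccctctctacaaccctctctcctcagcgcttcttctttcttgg
S100A8: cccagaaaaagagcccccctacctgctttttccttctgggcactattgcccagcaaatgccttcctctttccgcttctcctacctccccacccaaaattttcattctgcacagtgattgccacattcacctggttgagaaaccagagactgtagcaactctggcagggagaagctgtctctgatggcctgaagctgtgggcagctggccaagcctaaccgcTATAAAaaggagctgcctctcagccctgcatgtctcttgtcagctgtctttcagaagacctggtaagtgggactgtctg
S100P: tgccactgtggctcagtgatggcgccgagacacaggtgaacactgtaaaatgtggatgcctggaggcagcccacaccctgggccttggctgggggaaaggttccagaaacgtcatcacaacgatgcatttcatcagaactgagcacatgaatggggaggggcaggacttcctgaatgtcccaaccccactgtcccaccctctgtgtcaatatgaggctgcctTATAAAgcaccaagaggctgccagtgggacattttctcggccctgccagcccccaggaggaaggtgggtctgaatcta
S100A2: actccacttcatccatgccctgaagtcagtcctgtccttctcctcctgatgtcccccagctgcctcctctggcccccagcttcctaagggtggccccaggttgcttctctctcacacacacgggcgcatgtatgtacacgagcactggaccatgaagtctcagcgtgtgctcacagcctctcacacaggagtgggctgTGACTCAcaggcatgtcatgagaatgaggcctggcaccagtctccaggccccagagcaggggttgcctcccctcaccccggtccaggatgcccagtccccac
S100A6: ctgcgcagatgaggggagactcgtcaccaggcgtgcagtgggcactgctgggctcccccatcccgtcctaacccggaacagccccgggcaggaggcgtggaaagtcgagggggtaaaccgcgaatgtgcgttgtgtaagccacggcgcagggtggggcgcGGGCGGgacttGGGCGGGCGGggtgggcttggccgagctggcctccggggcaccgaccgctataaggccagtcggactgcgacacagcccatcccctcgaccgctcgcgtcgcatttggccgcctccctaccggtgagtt

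The 10 members have 14 windows. A TATA box stood in 6 of them, in 5 members (S100A4, S100A7, S100A8, S100A9 and S100P), against 11.5% of all 35116 windows of this length. Counted from the start site, it began at position -31 in S100A4, at -29 in the S100A8 and S100A9 windows and at -28 in S100A7 and S100P. In the S100A8 window of the start furthest downstream the match lay at -126. The AP-1 motif was found in 1 of the 14 windows, of S100A2, at -52, against 7.71% of all windows. A GC box was found in 4 of the 14 windows, 1 each of S100A6, S100A9, S100A10 and S100A16 (45% of all windows), with 3 matches in the S100A6 window. The NF-kappaB motif, not set in capitals, occurred in 9 of the 14 windows, in 8 members (58.7% of all windows), and can overlap a GC box. The C/EBP pattern TTGCNNAA was found in no member window and in 10.5% of all windows. A match is a run of letters and not a measured binding site.

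One library stood apart from its label. Of the genes of the sort antigens, KRT14 stood at 279 FPKM in MDA-MB-468 K18+K14+ and 48.6 FPKM in HCC70 K18+K14+, against 47.8 and 15.3 FPKM in the K18+ libraries, and VIM at 259 and 54.8 FPKM in K18+Vim+, against 12.2 and 13.4 FPKM in K18+. KRT18, whose protein all 6 populations were sorted for, lay between 158 and 569 FPKM in 5 libraries and at 67.7 FPKM in the MDA-MB-468 library labelled K18+Vim+, 14.6% of its level in MDA-MB-468 K18+. In that library SMAD4 and RB1, which the MDA-MB-468 line has lost, were listed at 5.19 and 6.68 FPKM, whereas the K18+ library of that line had 0.566 and 0.307 FPKM. EGFR, amplified in that line, was listed at 10.4 FPKM, and at 153 FPKM in K18+. Across genes its log2 values correlated with those of MDA-MB-468 K18+ at a Pearson r of 0.828, against 0.919 for MDA-MB-468 K18+K14+ with K18+ and 0.97 to 0.978 within HCC70. The summed markers of mesenchymal cells ranged from 25.2 to 42.4 FPKM in the other MDA-MB-468 libraries and from 28.4 to 148 FPKM in HCC70. In the MDA-MB-468 library labelled K18+Vim+ the sum was 299 FPKM, of which VIM, the gene of a sort antigen, made up 259 FPKM. All 7 of 7 markers stood at 1 FPKM or more there. The summed luminal markers stood at 215 FPKM there and between 1841 and 3152 FPKM elsewhere. Whether it holds cells of another line was not tested, and its values may not be those of MDA-MB-468 K18+Vim+ cells. The comparisons, ranges and profiles of the members are therefore given with and without it, the ranges and profiles over 5 libraries being an alternative added after the data were seen.

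The members covered a wide span of levels. S100A6, also called calcyclin, was the highest member in 5 of the 6 libraries, at 5888 FPKM in MDA-MB-468 K18+K14+, 3107 FPKM in MDA-MB-468 K18+, and 3211, 2568 and 2709 FPKM in HCC70 K18+K14+, K18+Vim+ and K18+. Its rank among all genes was 3 in MDA-MB-468 K18+ and 2 in HCC70 K18+K14+. In the MDA-MB-468 library labelled K18+Vim+ it stood at 199 FPKM, below S100A10 at 338 FPKM. Together the 10 members took 2.52% of the summed FPKM in MDA-MB-468 K18+K14+, 1.7% in MDA-MB-468 K18+ and 0.16% in the MDA-MB-468 library labelled K18+Vim+. In the HCC70 libraries they took 1.28% in K18+K14+, 0.93% in K18+Vim+ and 1.07% in K18+.

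**Figure D1:**
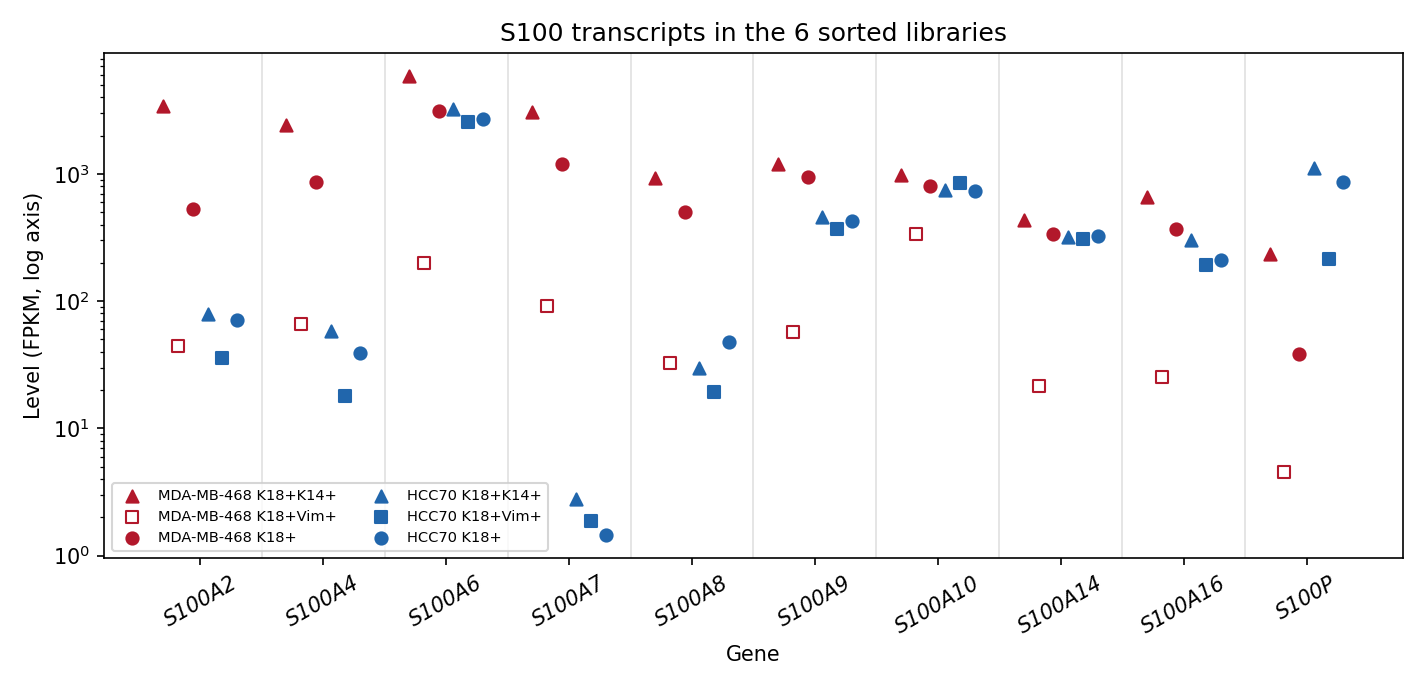
FPKM on a log axis for each S100 gene in the 6 libraries, 1 point per library; red is MDA-MB-468, blue HCC70, triangles K18+K14+, squares K18+Vim+, circles K18+, and the open square is the MDA-MB-468 library labelled K18+Vim+. S100A7 spans 1.44 to 3093 FPKM, whereas S100A10 stays between 338 and 988 FPKM.

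The spread over the libraries fell into unequal sets. The range of log2(FPKM + 1) over the 6 libraries had a median of 5.19 over the members, against 1.61 over the 12454 genes whose mean reached 1 FPKM, the genes tested below, to which all 10 members belong. Over the 5 libraries without the MDA-MB-468 library labelled K18+Vim+ the medians were 3.28 and 1.31. S100A7 had the widest range of all tested genes, 10.31, and S100A4, S100A2 and S100A8 had ranges of 7.0, 6.55 and 5.51, all with or without that library. The range of S100P was 7.63 over 6 libraries and 4.80 over 5. S100A6, S100A9, S100A14 and S100A16 had ranges from 4.27 to 4.88 over 6 libraries but from 0.51 (S100A14) to 1.76 (S100A16) over 5, so that most of their range came from 1 library. S100A10, the partner of annexin A2 that has lost calcium binding, had the narrowest range of the members, 1.54 over 6 libraries and 0.42 over 5.

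Between the lines, S100A4, S100A7 and S100A8 were higher and S100P was lower in MDA-MB-468 than in HCC70. S100A7, known as psoriasin and abundant in inflamed skin and in some breast carcinomas in situ, showed the largest difference. Its level was 3093 FPKM in K18+K14+, 90.9 FPKM in the library labelled K18+Vim+ and 1197 FPKM in K18+ of MDA-MB-468, against 2.79, 1.88 and 1.44 FPKM in the same populations of HCC70. The 3 MDA-MB-468 values all lay above the 3 HCC70 values. The log2 difference between the lines was 7.87 ± 0.86 (SE, n = 3 per line, limma adjusted p = 0.00756). Without both K18+Vim+ libraries it was 9.31 ± 0.38 (n = 2 per line, limma adjusted p = 9.97e-06). That fit of 4 libraries leaves 1 residual degree of freedom, with populations as the replicates of a line. S100A7A, a close copy next to S100A7, was listed at 7.76, 0.454 and 6.69 FPKM in MDA-MB-468 and at 0.1 FPKM, the floor of the table, in all HCC70 libraries. How reads that fit both copies were assigned is not given in the sources used here, so the split between these 2 genes is uncertain.

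S100A4, known as metastasin and a binder of non-muscle myosin, stood at 2441, 65.8 and 865 FPKM in MDA-MB-468 K18+K14+, the library labelled K18+Vim+, and K18+, against 58.7, 18.1 and 39.2 FPKM in HCC70. The lines did not overlap. The log2 difference was 3.86 ± 0.67 (SE, n = 3 per line, limma adjusted p = 0.0225), and 4.89 ± 0.47 without both K18+Vim+ libraries (limma adjusted p = 0.000272). The annotated spans of S100A4 and S100A5 overlap, and S100A5 was listed at 8.54, 0.123 and 1.01 FPKM in MDA-MB-468 and at 0.1 FPKM in HCC70. S100A4 is also used as a marker of fibroblasts and of epithelial to mesenchymal change. Within each line its value was lowest in the library labelled K18+Vim+. The same held for S100A2, S100A6, S100A8, S100A9, S100A14, S100A16 and S100P. Of all tested genes, 33.9% were lower in K18+Vim+ than in K18+ in both lines, and 23.7% lower than in K18+K14+. The share lowest against both was not counted. In HCC70 the log2 ratios to K18+ of S100A6, S100A14 and S100A16 were only -0.08, -0.08 and -0.11. With the length trend removed they were 0.05, 0.05 and 0.02.

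S100A8, a subunit of calprotectin, stood at 924, 32.9 and 501 FPKM in MDA-MB-468, against 29.9, 19.3 and 48.0 FPKM in HCC70. The MDA-MB-468 library labelled K18+Vim+ lay within the HCC70 values, and the other MDA-MB-468 libraries lay above all of them. The log2 difference was 3.0 ± 0.75 (SE, n = 3 per line, limma adjusted p = 0.0489), and 4.13 ± 0.48 without both K18+Vim+ libraries (limma adjusted p = 0.000692). The annotated span of S100A8 overlaps that of S100A7A.

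S100P, first found in placenta and often present in carcinomas, was the only member that was lower in MDA-MB-468 by this test. It stood at 236, 4.57 and 38.6 FPKM in MDA-MB-468 K18+K14+, the library labelled K18+Vim+, and K18+, against 1105, 214 and 863 FPKM in HCC70. MDA-MB-468 K18+K14+ and HCC70 K18+Vim+ were nearly level, so that the lines overlapped. The log2 difference was -3.98 ± 0.60 (SE, n = 3 per line, limma adjusted p = 0.0169), and -3.33 ± 0.59 without both K18+Vim+ libraries (limma adjusted p = 0.00484).

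S100A2, a calcium sensor of basal epithelial cells, passed only without the K18+Vim+ libraries. Its values were 3421, 44.4 and 529 FPKM in MDA-MB-468, against 78.7, 35.6 and 71.5 FPKM in HCC70. The log2 difference was 2.87 ± 0.88 (SE, n = 3 per line, limma adjusted p = 0.0794) over the 6 libraries and 4.15 ± 0.63 without both K18+Vim+ libraries (limma adjusted p = 0.00249). S100A6, S100A9, S100A10, S100A14 and S100A16 did not pass in either fit. Their log2 differences lay between -1.08 and -0.04 over the 6 libraries and between 0.25 and 1.27 without both K18+Vim+ libraries, so that all 5 changed sign. Leaving out either K18+Vim+ library alone gives these same differences, since the other is then matched by its own population term.

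**Figure D2:**
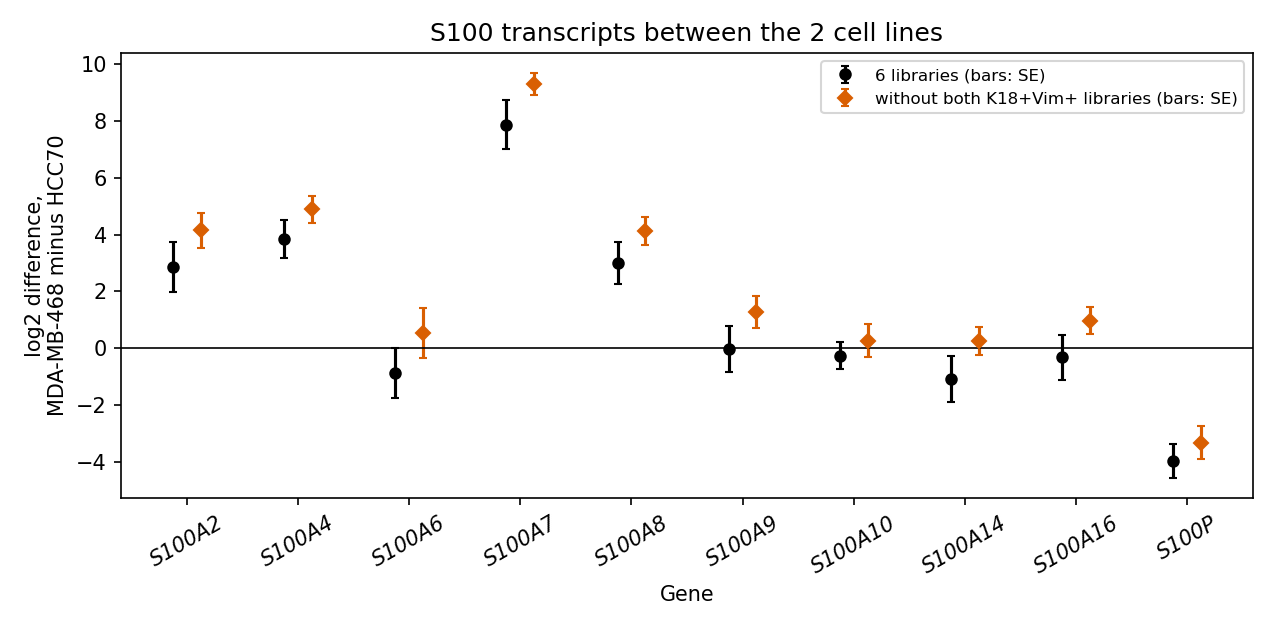
Fitted log2 difference, MDA-MB-468 minus HCC70, on the log2(FPKM + 1) scale for each S100 gene, with bars for the SE; circles are the fit of 6 libraries and diamonds the fit without both K18+Vim+ libraries. S100A7 stands highest at 7.87 and 9.31, S100P lowest at -3.98 and -3.33, and 5 genes change sign between the fits.

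Of the 10 members 4 thus passed at a limma adjusted p of 0.05, 3 higher and 1 lower in MDA-MB-468, against 12.2% of the tested genes, 4.54% higher and 7.68% lower. Without both K18+Vim+ libraries 5 passed (27% of genes), 4 higher and 1 lower, against 11.5% and 15.5% of genes. All 3 MDA-MB-468 values lay above all HCC70 values for 2 members (20.1% of genes), and the reverse held for 0 (21%). Without both K18+Vim+ libraries this was so for 8 members (30.4%), and the reverse for S100P alone among the members (32.2%). The median log2 difference of the members was -0.16 over the 6 libraries and 1.12 without both K18+Vim+ libraries, and that of all genes was 0.01 and -0.05. The 4 calls became 1 when the HCC70 K18+ or the MDA-MB-468 K18+ library was left out, to 2 when either K18+K14+ library was left out, and became 5 when either K18+Vim+ library was left out. S100A7 kept an adjusted p of at most 0.0191 in all of these.

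K18+K14+ cells against K18+ cells asks which transcripts go with keratin 14. In MDA-MB-468 all 10 members had higher values in the K18+K14+ library (41.2% of tested genes did), and in HCC70 8 of 10 did (34.2% of genes). The 8 were higher in both lines, as were 20.2% of genes, and the exceptions in HCC70 were S100A8 and S100A14, with opposite signs as in 34.5% of genes. A log2 ratio of at least 1 was reached by 4 members in MDA-MB-468 (9.13% of genes) and by 0 in HCC70 (0.771%). No member passed the test: with limma 0 of 10 reached an adjusted p of 0.05, as did 0% of all genes, and 0 of 10 had an unadjusted p under 0.05, against 3.44% of genes. The spread in this fit also draws on the K18+Vim+ libraries. With the K18+K14+ and K18+ libraries alone, the SE of S100A7 was 0.38, against 1.06. In that fit, with 1 residual degree of freedom, 0 members passed, the lowest limma adjusted p being 0.388. Unadjusted limma p was 0.028 for S100A7, 0.0356 for S100P and 0.0529 or more for the others.

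The highest ratios belonged to S100A2 and S100P. S100A2 stood at 3421 FPKM in MDA-MB-468 K18+K14+, against 529 FPKM in K18+, a ratio of 6.47, and at 78.7 against 71.5 FPKM in HCC70, a ratio of 1.10. S100P had 236 against 38.6 FPKM in MDA-MB-468, a ratio of 6.12, and at 1105 against 863 FPKM in HCC70, a ratio of 1.28. Both genes thus differed far more in the MDA-MB-468 pair of libraries than in the HCC70 pair, a difference that could not be tested with 1 library on each side. The fitted log2 difference was 1.41 for S100A2 and 1.47 for S100P (limma adjusted p = 0.855 for both).

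S100A4 and S100A7 had ratios of more similar size in the lines. S100A4 had 2441 against 865 FPKM in MDA-MB-468, a ratio of 2.82, and 58.7 against 39.2 FPKM in HCC70, a ratio of 1.5. For S100A7 the ratios were 2.58 in MDA-MB-468 and 1.93 in HCC70, where the HCC70 levels were only 2.79 and 1.44 FPKM. S100A16, an S100 protein found in many epithelia, had ratios of 1.78 and 1.46, and S100A6 of 1.89 and 1.19. S100A9, S100A10 and S100A14 stayed between 0.982 and 1.31 in both lines. S100A8 had 924 against 501 FPKM in MDA-MB-468 and 29.9 against 48.0 FPKM in HCC70, ratios of 1.84 and 0.622.

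Ratios to K18+ went with transcript length, and S100 transcripts are short, with median annotated lengths from 460.5 bases for S100A7 to 1279 bases for S100P. Across genes the Spearman correlation of the log2 ratio to K18+ with transcript length was -0.244 in MDA-MB-468 and -0.157 in HCC70. With the trend on length removed, the median log2 ratio of the members was 0.82 in MDA-MB-468, against 0.90 before, and 0.29 in HCC70, against 0.19 before. The number of members with higher values was then 10 in MDA-MB-468 and 9 in HCC70. The scaling of the libraries mattered more. In MDA-MB-468 K18+K14+ the 100 highest genes took 36.3% of the summed FPKM, against 25% in MDA-MB-468 K18+. The median tested gene stood at 8.12 FPKM there, against 10.62 FPKM in MDA-MB-468 K18+. After quantile normalization, which moved the median difference of all genes from -0.16 to 0.00, the fitted difference was above 0 for 5 members and below 0 for 5, instead of 10 and 0. S100A2, S100A4, S100A7, S100A16 and S100P were the 5 that stayed above 0. When K18+K14+ cells of MDA-MB-468 were left out, the fit put 9 members below 0, all except S100P. Without the HCC70 K18+ library it put 6 below 0. In both of these fits the difference also draws on the K18+Vim+ libraries through the line term, among them the MDA-MB-468 library so labelled. The pair of libraries left whole had 8 of 10 members higher in the first case (HCC70) and 10 in the second (MDA-MB-468). With the K18+K14+ and K18+ libraries of both lines in the fit, leaving out either K18+Vim+ library cannot move these differences in this model. It does change their SEs and p-values.

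**Figure D3:**
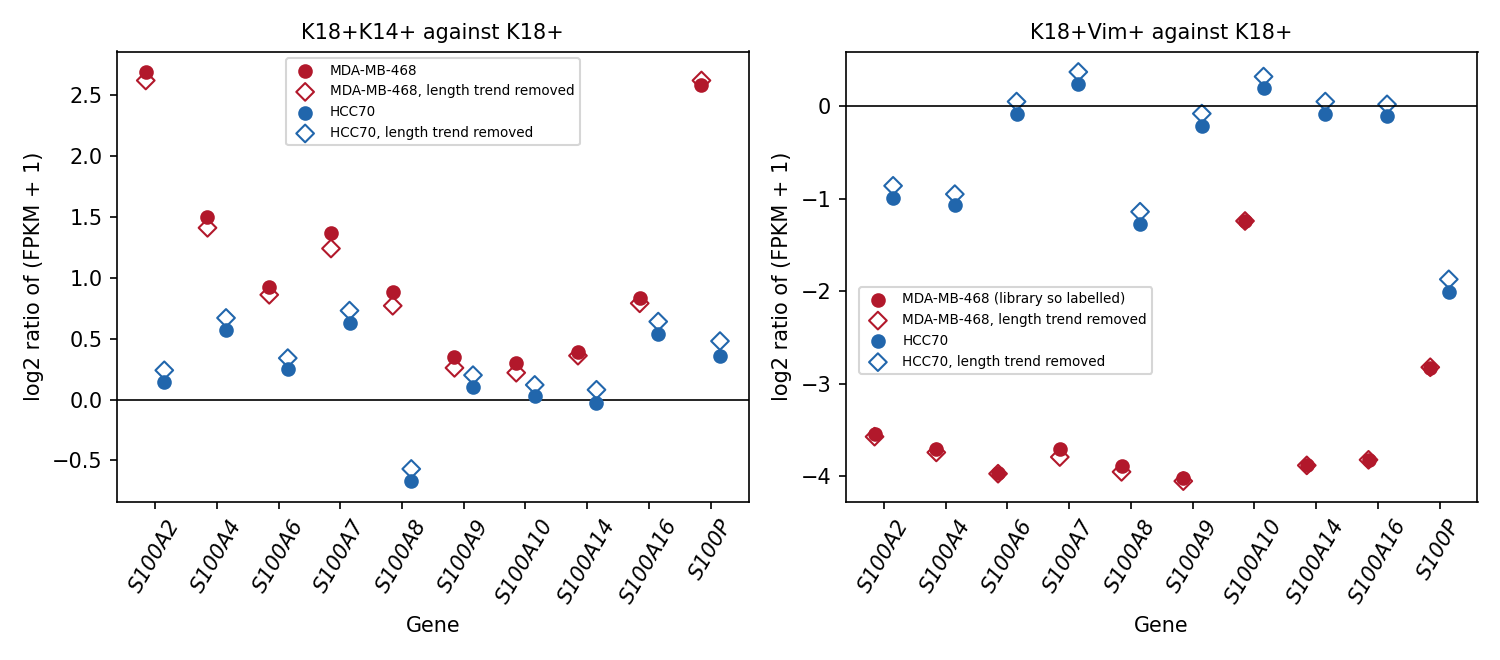
Log2 ratio of (FPKM + 1) within each line for K18+K14+ against K18+ (left) and K18+Vim+ against K18+ (right); filled circles are ratios as deposited, open diamonds the same with the trend on transcript length removed, red MDA-MB-468 and blue HCC70. On the left S100A2 and S100P stand at 2.69 and 2.58 in MDA-MB-468; on the right 8 genes lie between -4.02 and -3.54 in MDA-MB-468, and S100P is the lowest in HCC70 at -2.01.

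K18+Vim+ cells against K18+ cells asks which transcripts go with vimentin, and the values of the lines differed in size. In HCC70, S100P, S100A8 and S100A4 had values below those of K18+ with a log2 ratio of -1 or below, 3 of 10 members against 3.42% of genes. S100P stood at 214 FPKM in HCC70 K18+Vim+, against 863 FPKM in K18+, a ratio of 0.248, and it was lower still in relation to K18+K14+ cells, with a ratio of 0.194. S100A8 stood at 19.3 against 48.0 FPKM and S100A4 at 18.1 against 39.2 FPKM, ratios of 0.402 and 0.461. S100A2 stood at 35.6 against 71.5 FPKM, just short of that limit. The other 6 members had ratios between 0.864 and 1.30 in HCC70, among them S100A6 at 2568 against 2709 FPKM and S100A14, an epithelial member, at 307 against 324 FPKM.

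In the MDA-MB-468 library labelled K18+Vim+ all 10 members were lower than in MDA-MB-468 K18+ with a log2 ratio of -1 or below, as were 16.9% of genes. Most of them were lower in nearly the same proportion. S100A9 stood at 6.08% of its K18+ level, S100A6 at 6.4%, S100A14 at 6.5%, S100A8 at 6.57%, S100A16 at 6.83%, S100A4 and S100A7 at 7.6% each, and S100A2 at 8.4%. These 8 members lay between 6% and 9% of the K18+ level, limits set after the values were seen, although their levels in K18+ ran from 334 to 3107 FPKM. Of the 6441 tested genes at 10 FPKM or more in MDA-MB-468 K18+, 2.64% lay in that band, and the median gene stood at 87.6%. S100P was at 11.8% and S100A10 at 42.2%. Of the 6 luminal markers, EPCAM (7.33%) and ELF3 (6.08%) lay in the band, KRT19 just below it at 5.96%, and KRT8 (13.1%), KRT18 (14.6%) and CDH1 (17.1%) above it. Of the 5 basal markers, KRT5 (7.55%) and KRT17 (8.65%) lay in the band, and KRT14 (13.4%) above it. KRT6A (0.1 against 0.596 FPKM) and TP63 (0.441 against 0.438 FPKM) did not reach 10 FPKM in K18+. Their percentages are therefore not set against the band. EGFR stood at 6.79%, and its neighbours on the chromosome LANCL2, VOPP1 and SEC61G at 9.04%, 9.59% and 14.8%. The S100A8 to S100A9 ratio was 0.573 in this library and 0.53 in MDA-MB-468 K18+. In this bulk RNA, fewer cells of a type and less RNA per cell cannot be told apart, and the part of other cells in these values was not tested. Of the 7 mesenchymal markers 5 had higher values in this library, among them CDH2 at 6.43 against 0.112 FPKM in MDA-MB-468 K18+ and SPARC at 7.14 against 0.831 FPKM, while FN1 stood at 16.9 against 25.2 FPKM and COL1A1 at 2.78 against 3.55 FPKM.

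**Figure D4:**
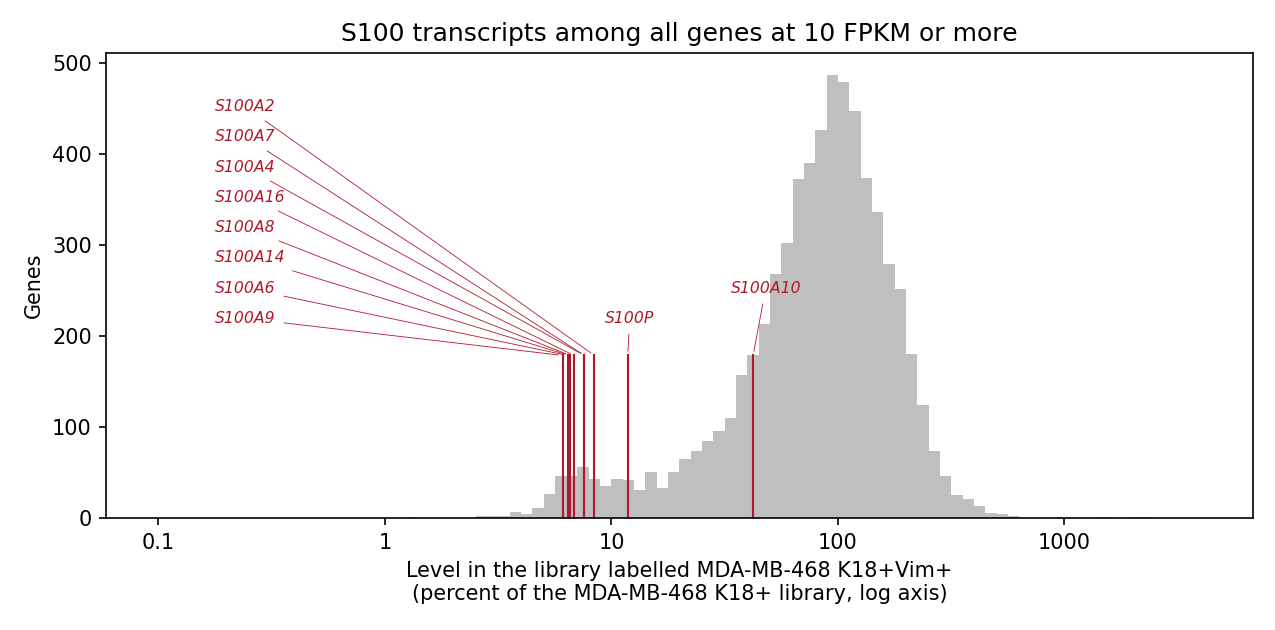
Histogram of the level in the MDA-MB-468 library labelled K18+Vim+ as a percent of the MDA-MB-468 K18+ library (log axis), over 6441 genes at 10 FPKM or more in K18+; red lines are the 10 S100 genes. S100P at 11.8% and S100A10 at 42.2% stand to the right of the other 8, which lie from 6.08% to 8.4%, while the median gene is at 87.6%.

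Over both lines, 8 of 10 members were lower in K18+Vim+ than in K18+ in each line, against 33.9% of genes, and S100A7 and S100A10 were the exceptions in HCC70. The lines had opposite signs for these 2 members and for 48.3% of genes. Of the 10 members 8 were lower in HCC70 (64.5% of genes), whereas with the length trend removed 5 members had higher and 5 lower values in HCC70 K18+Vim+ than in K18+. With limma 0 of 10 members passed, as did 0% of all genes, and 3 of 10 had an unadjusted p under 0.05 (S100A4, S100A8 and S100P), against 4.27% of genes. The fitted log2 differences of these 3 were -2.39, -2.58 and -2.42 (limma adjusted p = 0.863 each). Without the HCC70 K18+Vim+ library 9 members passed as lower, against 7.7% of genes, with the MDA-MB-468 library labelled K18+Vim+ alone standing for the population. Without that library 0 passed, and the fitted difference was below 0 for 6 members and above 0 for 4.

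Set against K18+K14+ cells, K18+Vim+ cells had lower values for 9 of 10 members in both lines, against 23.7% of genes. S100A10 was the exception, at 845 against 751 FPKM in HCC70, and 49.3% of genes had opposite signs. Both comparisons of K18+Vim+ cells use the same K18+Vim+ libraries. In HCC70 the lowest ratios were those of S100P (0.194), S100A4 (0.308) and S100A2 (0.453), all beyond a log2 ratio of -1, as were 2.47% of genes. None of the members passed with limma (0% of all genes), and 6 of 10 had an unadjusted p under 0.05, against 5.46% of genes. Without the HCC70 K18+Vim+ library 9 passed as lower, against 8.57% of genes, and without the MDA-MB-468 library labelled K18+Vim+ 0 passed.

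S100A8 and S100A9 form calprotectin, a heterodimer that binds zinc and manganese and is made in bulk by neutrophils and by inflamed squamous epithelium. Their transcripts were not kept in proportion between the lines. In MDA-MB-468 the FPKM ratio of S100A8 to S100A9 was 0.767 in K18+K14+, 0.573 in the library labelled K18+Vim+ and 0.53 in K18+, against 0.065, 0.0523 and 0.112 in HCC70. The values of the lines did not overlap. S100A9 itself stood at 1204, 57.5 and 945 FPKM in MDA-MB-468 and at 459, 369 and 428 FPKM in HCC70, with a log2 difference of -0.04 ± 0.81 over the 6 libraries (SE, n = 3 per line, limma adjusted p = 0.975) and 1.27 ± 0.56 without both K18+Vim+ libraries (limma adjusted p = 0.122). S100A12, a further member that neutrophils make, was listed at 0.781, 0.1 and 0.719 FPKM in MDA-MB-468 and at 0.1 FPKM in HCC70. Of 10 markers of neutrophils and monocytes, 1 to 3 reached 1 FPKM in any library, ELANE was at the floor in all 6, and PTPRC, which encodes the leukocyte antigen CD45, lay between 0.248 and 1.41 FPKM. The summed markers lay between 5.18 FPKM, in the MDA-MB-468 library labelled K18+Vim+, with CD14 at 2.44 FPKM, and 146 FPKM, in HCC70 K18+K14+, with CD14 at 138 FPKM.

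Of 10 further S100 family genes, 6 were tested between the lines. With limma 0 passed over the 6 libraries (12.2% of all genes), whereas 3 passed as higher in MDA-MB-468 without both K18+Vim+ libraries (11.5%): S100A3, S100A5 and S100A7A. S100A3, known from hair cuticle, stood at 42.8, 1.52 and 20.5 FPKM in MDA-MB-468, against 0.666, 1.09 and 0.965 FPKM in HCC70. S100A11, an annexin A1 binder, stood at 752, 202 and 1005 FPKM in MDA-MB-468, against 1568, 1750 and 1691 FPKM in HCC70 (log2 difference -1.64, limma adjusted p = 0.0990, and -0.90, adjusted p = 0.321, without both K18+Vim+ libraries). S100A13 stood at 1243, 137 and 379 FPKM in MDA-MB-468 and at 210, 199 and 228 FPKM in HCC70, and its span overlaps that of S100A1. S100B, the glial member, was at the floor in all 6 libraries. The list's median log2 difference was 1.13 over the 6 libraries, against 0.01 for all genes, and 1.82 without both K18+Vim+ libraries, against -0.05. In the population comparisons 0 members of this list, or of any list below, passed.

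Of 16 genes for binding partners and receptors of S100 proteins 14 were tested, and 1 passed as higher and 2 as lower in MDA-MB-468, against 4.54% and 7.68% of all genes. The same 3 genes passed without both K18+Vim+ libraries, where 27% of all genes did. The median log2 difference of the list was -0.56, against 0.01 for all genes, and -0.46 without both K18+Vim+ libraries, against -0.05. ANXA1, an annexin that S100A11 binds, stood at 59.6, 12.4 and 99.6 FPKM in MDA-MB-468, against 341, 283 and 388 FPKM in HCC70 (log2 difference -2.95, limma adjusted p = 0.0240). AHNAK, a large scaffold bound by the S100A10 and annexin A2 complex, stood at 8.91, 3.99 and 17.2 FPKM, against 61.4, 50.4 and 57.6 FPKM (-2.57, limma adjusted p = 0.0184). ANXA6 was higher in MDA-MB-468, at 22.9, 38.1 and 12.7 FPKM, against 2.85, 2.28 and 1.52 FPKM (2.88, limma adjusted p = 0.0106). ANXA2, whose protein S100A10 holds at the membrane, stood at 370, 62.0 and 347 FPKM in MDA-MB-468 and at 453, 408 and 430 FPKM in HCC70 and did not pass (-1.10, limma adjusted p = 0.223, and -0.30, adjusted p = 0.68, without both K18+Vim+ libraries). Of the receptors of released S100 proteins, AGER lay between 4.10 and 32.9 FPKM, and TLR4 was at the floor in 5 of 6 libraries and at 0.147 FPKM in HCC70 K18+.

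Genes of cornified epidermis next to the S100 cluster were nearly silent. Of 7 fused-type S100 genes, which include filaggrin and trichohyalin, 0 had a mean of 1 FPKM. Of 19 genes listed for the epidermal differentiation complex and its edges, 4 did, and 0 passed over the 6 libraries. TCHHL1 was in both of these lists. SPRR1B, a precursor of the cornified envelope, stood at 2.75, 0.1 and 4.11 FPKM in MDA-MB-468, against 0.167, 0.21 and 0.268 FPKM in HCC70, and PGLYRP4 at 5.46, 0.393 and 4.56 FPKM, against 1.32, 0.1 and 0.228 FPKM. Both passed as higher in MDA-MB-468 without both K18+Vim+ libraries. IVL, which encodes involucrin, lay between 0.206 and 3.81 FPKM. THEM4, at the edge of the complex, was lowest in MDA-MB-468 K18+K14+, at 11.1 FPKM. Of 22 other EF-hand calcium sensors 21 were tested, of which 2 passed as higher (EFHD1 and NUCB2) and 2 as lower (EFHD2 and NUCB1) in MDA-MB-468, against 4.54% and 7.68% of all genes. Without both K18+Vim+ libraries 3 passed as higher, with RCN1 added, and 4 as lower, with CALML4 and CALU added, against 11.5% and 15.5% of all genes. The paralogs EFHD1 and EFHD2 went in opposite directions, EFHD1 at 59.8, 17.1 and 113 FPKM in MDA-MB-468, against 3.92, 3.40 and 4.99 FPKM in HCC70, and EFHD2 at 15.7, 8.80 and 7.36 FPKM, against 54.6, 56.1 and 62.0 FPKM. CALML5, a calmodulin-like protein of epidermis, stood at 290, 4.21 and 59.3 FPKM and at 220, 560 and 179 FPKM and did not pass (limma adjusted p = 0.187, and 0.429 without both K18+Vim+ libraries). RCN1 stood at 661, 130 and 301 FPKM, against 62.4, 75.8 and 67.6 FPKM (limma adjusted p = 0.0518, and 0.00362 without both K18+Vim+ libraries).

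The members fell into profiles that can be described by the root mean square difference between their mean-centred log2(FPKM + 1) values. S100A6, S100A14, S100A16 and S100A9 were alike, with differences from 0.24 to 0.53 among them over 6 libraries and over 5, without the MDA-MB-468 library labelled K18+Vim+. S100A10 was nearest to S100A9 over 6 libraries (0.95) but to S100A14 over 5 (0.10). S100A2, S100A4 and S100A8 differed from each other by 0.61 to 0.65 over 6 libraries and by 0.59 to 0.64 over 5, and from the first set by 1.56 or more in both. S100A7 and S100P were farthest from each other, at 5.98 over 6 libraries and 5.91 over 5. Among the genes that are no members, the kallikrein gene KLK6 (0.22 over 6 libraries, 0.19 over 5) and CSAG1 (0.39 and 0.35) were the nearest to S100A4 in both. HRCT1 was the nearest to S100A2 (0.51 and 0.40) and EDN2 to S100A8 (0.29 and 0.27) in both, and CRYAB (0.60) and DAPL1 (0.35) came next over 6 libraries. For S100A7 the nearest in both, CYBA (1.23 and 1.23) and WNT6 (1.32 and 1.21), were still far off. The nearest genes of the other members differed with that library left out. Over 6 libraries they were the keratin gene KRT19 and PLAAT4 for S100A6, SHFL and AP1M2 for S100A9, PLPP2 and the protease gene ST14 for S100A14, FXYD3 and RHOD for S100A16, and PLA2G2A and LCN2 for S100P. Over 5 libraries none of these 10 was among the 2 nearest, and KRT19, for one, came 53 in order for S100A6. The libraries share 2 lines and are not independent points.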

How the data were processed

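Messenger RNA was measured in 6 libraries of fixed and sorted cells, 3 populations of each of 2 lines. The submitters' processing notes name TopHat2 and the GRCh37 build. What counted the reads, and on which annotation, is not given in the sources used here. Values deposited by the authors are FPKM per Entrez Gene ID in 18807 rows, with a floor of 0.1 FPKM. Per the labels, RNA was recovered from methanol-fixed cells, which can break it, and FPKM does not correct for that. The 7 rows with a blank were left out, and 5 IDs had 2 rows, of which the one with more FPKM on average was used. Of 18795 IDs, 18732 were named through the RefSeq table (GRCh38.p14), which was used for names, gene order and the printed start regions only.

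Genes that averaged 1 FPKM or more were fitted as log2(FPKM + 1) with limma 3.58.1 in R 4.3.3 (lmFit, eBayes with trend), population and line as terms, 6 libraries in 1 fit, with 2 residual degrees of freedom. Libraries were paired by cell line. P-values are two-sided and adjusted by Benjamini-Hochberg over all genes of a comparison, threshold 0.05. Log2 differences understate the change of low genes. Transcript lengths were medians from GENCODE, present for 99.9% of tested genes. The test was also run on simulated data, in which a gene had the same spread in all libraries and no library stood apart from its line. Named genes were the members, the sort antigens, SMAD4, RB1 and EGFR, up to 4 genes per list with the widest range, and the 2 nearest profiles of each member with a log2 range over 2; other genes were named after their values were seen. The members and lists were chosen with earlier results of these data known. Tables were handled in Python 3.11.15 (pandas 2.3.3, numpy 2.4.6), figures in matplotlib 3.10.9.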

Additional observations from a re-analysis of the deposited data

Results flagged for a closer look

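For 4 members the lines had opposite signs in a comparison of populations, each from 1 library per side, and none of these differences between the lines was tested. In K18+K14+ against K18+ cells the log2 ratio of S100A8 was 0.88 in MDA-MB-468 and -0.67 in HCC70, and that of S100A14 was 0.39 and -0.03. In K18+Vim+ against K18+ cells the log2 ratio of S100A7 was -3.70 in the MDA-MB-468 libraries and 0.24 in HCC70, and that of S100A10 was -1.24 and 0.20. In K18+Vim+ against K18+K14+ cells S100A10 gave -1.54 and 0.17. Opposite signs were also found for 34.5%, 48.3% and 49.3% of all tested genes in these 3 comparisons. The K18+Vim+ values of MDA-MB-468 are those of the library so labelled.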

How the results depend on the processing

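Between the lines, the 4 members that passed became 1 with the population term left out and 0 with no filter on low values, where 0 of all genes passed and genes at the floor in every library enter the estimate of the spread. Leaving out each library in turn gave 1 to 5. In K18+Vim+ against K18+ and against K18+K14+ cells the count was 0 to 9 over the libraries left out. No other alternative moved a count by more than 1.5 times, and without a term for the line (no replicate block) the 3 population comparisons gave 0, as with the libraries paired by line. Single calls ended for S100A8 at a pseudocount of 5 (limma adjusted p = 0.0527) and with the length trend removed (0.0585). The causes were not tested.

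Some fitted log2 differences turned sign. After quantile normalization the K18+K14+ against K18+ difference was -0.02 for S100A6, -0.27 for S100A8, -0.22 for S100A9, -0.30 for S100A10 and -0.17 for S100A14. Without both K18+Vim+ libraries the difference between the lines was 0.54 for S100A6, 1.27 for S100A9, 0.26 for S100A10, 0.25 for S100A14 and 0.97 for S100A16. Leaving out single libraries, the K18+K14+ against K18+ difference ranged from -0.50 to 3.33 for S100A2, -0.08 to 2.15 for S100A4, -0.73 to 1.89 for S100A6, -0.35 to 2.35 for S100A7, -1.32 to 1.53 for S100A8, -0.85 to 1.30 for S100A9, -0.33 to 0.66 for S100A10, -0.98 to 1.34 for S100A14 and -0.39 to 1.76 for S100A16. The K18+Vim+ against K18+ difference ranged from -4.13 to 0.09 for S100A6, -3.89 to 0.42 for S100A7, -1.31 to 0.27 for S100A10 and -3.99 to 0.03 for S100A14, and against K18+K14+ from -1.47 to 0.10 for S100A10. Between the lines the range was -1.74 to 0.54 for S100A6, -0.76 to 1.27 for S100A9, -0.60 to 0.26 for S100A10, -1.86 to 0.25 for S100A14 and -1.03 to 0.97 for S100A16. Fits of 5 libraries, and the fit of 4 without both K18+Vim+ libraries, leave 1 residual degree of freedom. Where a K18+ or K18+K14+ library is left out, the K18+K14+ against K18+ difference also draws on the K18+Vim+ libraries through the line term.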
